A study of Mus musculus with 19 samples.

Results

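The step from 3 h to 6 h in culture was followed in hepatic stellate cells (HSCs) of healthy male Balb/c mice, by comparing the 3 samples collected 6 h after plating with the 3 samples collected 3 h after plating, 6 of the 19 samples of the series. The mice were 23 to 24 weeks old. HSCs were sorted by the ultraviolet fluorescence of their vitamin A directly into collagen coated wells with DMEM and 10% fetal bovine serum. The culture medium was changed after 3 h, so that the cells collected at 6 h had been through a medium change that the cells collected at 3 h had not, and the effects of this change and of the time in culture cannot be told apart. Each sample represents 2 technical repeats. The labels number the samples of each timepoint as replicates 1, 2 and 3 without saying what the number marks. Replicates 1 and 3 share an isolation date and replicate 2 has another. The contrast covers all genes, and 10658 of the 19456 genes with at least 1 count in these 6 samples passed the filter on low counts and were tested. Sorted cells on plates lack the tissue that surrounds HSCs in the liver, which limits these cultures as a model of injury.

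In the healthy liver, HSCs lie between hepatocytes and sinusoidal endothelium, store vitamin A in lipid droplets and are called quiescent. Injury, or plating on plastic, makes them lose these stores and turn into contractile, matrix producing cells. The first hours of this change are called initiation, and the later phase with its collagen synthesis is called perpetuation. Attachment and spreading engage the actin cytoskeleton and the coactivators YAP and TAZ with their TEAD partners, while cell isolation itself is known to switch on immediate early genes and NF-kB targets.

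RNASeq was made with 3' mRNA libraries, in which each transcript is counted near its 3' end, and the authors deposited raw counts per gene. The 6 samples held between 3353915 and 5609553 counts. Levels are given below in CPM, a gene's counts relative to the TMM scaled total of the library, in the order of replicates 1, 2 and 3, and their comparisons use edgeR's quasi-likelihood test with Benjamini-Hochberg adjustment over all genes tested. Replicate 2 at 6 h stood apart in the number of genes detected, with 15189 against 11665 and 11171 in the other 6 h samples and 13089 to 13651 at 3 h. Of the 6018 genes that averaged 20 CPM or more at 6 h, 89, 11 and 145 were listed at 0 in replicates 1, 2 and 3, and of the 6329 such genes at 3 h, 43, 62 and 55 were. Losses of this kind make a single value of 0 a weak basis for a change. The share of mitochondrially encoded counts was 5.92 to 8.14% at 3 h and 5.03 to 6.22% at 6 h.

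Marker genes were used to check the labelled cell type and what else the wells held. The summed level of 12 stellate markers was 32610 to 37479 CPM at 3 h and 20436 to 21795 CPM at 6 h, with all 12 detected in all 6 samples, and Dcn and Ecm1 were the most abundant of them. The summed level of 15 markers of Kupffer cells and macrophages was 299 to 566 CPM at 3 h and 37.6 to 58.8 CPM at 6 h. Clec4f and Cd5l, 2 defining genes of Kupffer cells, were at 0 counts in every 6 h sample. The 16 hepatocyte markers summed to 591 to 1939 CPM at 3 h and 162 to 507 CPM at 6 h, and the 15 sinusoidal endothelial markers to 1372 to 4105 CPM and 471 to 1330 CPM. Markers of lymphocytes, cholangiocytes, mesothelium and erythroid cells summed to at most 62.6 CPM in every sample of both timepoints. In such bulk samples, fewer cells of a type and less RNA per cell cannot be told apart, and the part of these other cells in the changes described below was not tested.

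**Figure D1:**
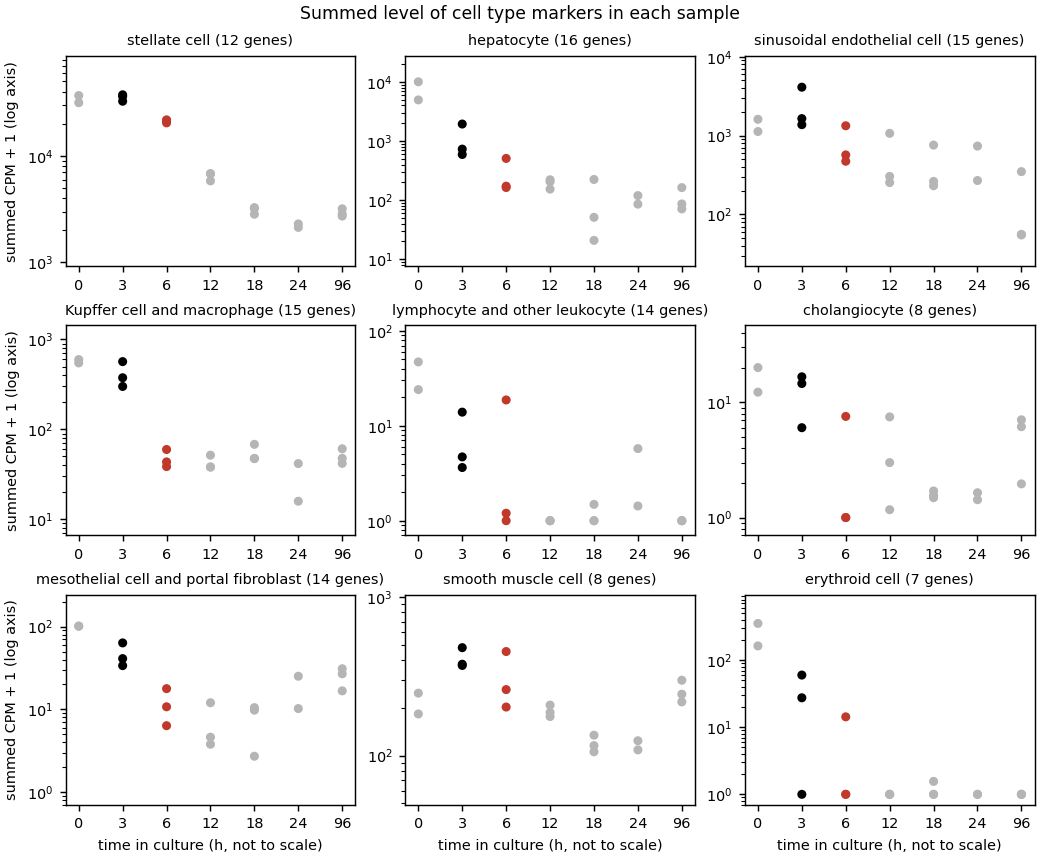
Summed CPM of each set of cell type markers plus 1 (log axis) in each of the 19 samples, by time in culture (h, axis not to scale), with 3 h in black, 6 h in red and the other timepoints in grey. The Kupffer cell and macrophage sum lies at 299 to 566 CPM at 3 h and at 37.6 to 58.8 CPM at 6 h, while the stellate sum stays at 20436 CPM or above at both.

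From 3 h to 6 h, 415 genes were upregulated and 501 were downregulated, where a call needed a change of more than 2 fold with an adjusted p under 0.1. The genes called higher were 3.89% of the 10658 tested and those called lower were 4.7%. The median log2 fold change was 1.50 among the genes called higher, -1.86 among those called lower and -0.03 over all genes tested. Without the limit on fold change, 524 genes (4.92%) were higher and 602 (5.65%) lower. Below, a member of a gene list is said to have risen or fallen when it passed this second rule, so that 4.92% and 5.65% are the shares against which each list is read. The upregulated genes took 3.0, 3.43 and 3.41% of all counts at 3 h and 10.2, 10.6 and 11.6% at 6 h. The downregulated genes went from 13.6, 13.2 and 13.3% to 5.0, 4.48 and 4.28%. In all 916 called genes, the 3 h and the 6 h samples did not overlap. This comes from the same values as the call, so that for called genes, here and below, it adds no support. The samples did not overlap in 14.9% of all genes tested in the upward direction and in 18.9% in the downward direction. Of the called genes, 24 that rose were at 0 counts in all 3 h samples and 95 that fell were at 0 counts in all 6 h samples. Such genes passed the filter on low counts only through the other timepoint, where they were high.

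The number of called genes depended on the samples. With the isolation date as a factor, 321 genes were higher and 395 lower. Leaving out 3 h replicate 1, 2 or 3 left 144, 183 or 181 genes higher and 180, 180 or 222 lower. Leaving out 6 h replicate 1, 2 or 3 gave 247, 265 or 301 genes higher and 395, 695 or 459 lower. For list counts of 1 to 3 members, 35 of 39 moved by more than 1.5 times with the date as a factor or with 1 sample left out, and 27 reached 0, so that such small counts are given only to account for the lists. Larger counts that moved by as much carry their other values in brackets. Where a named gene missed the threshold with the date as a factor or without 1 sample, its value under that setting follows its adjusted p.

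**Figure D2:**
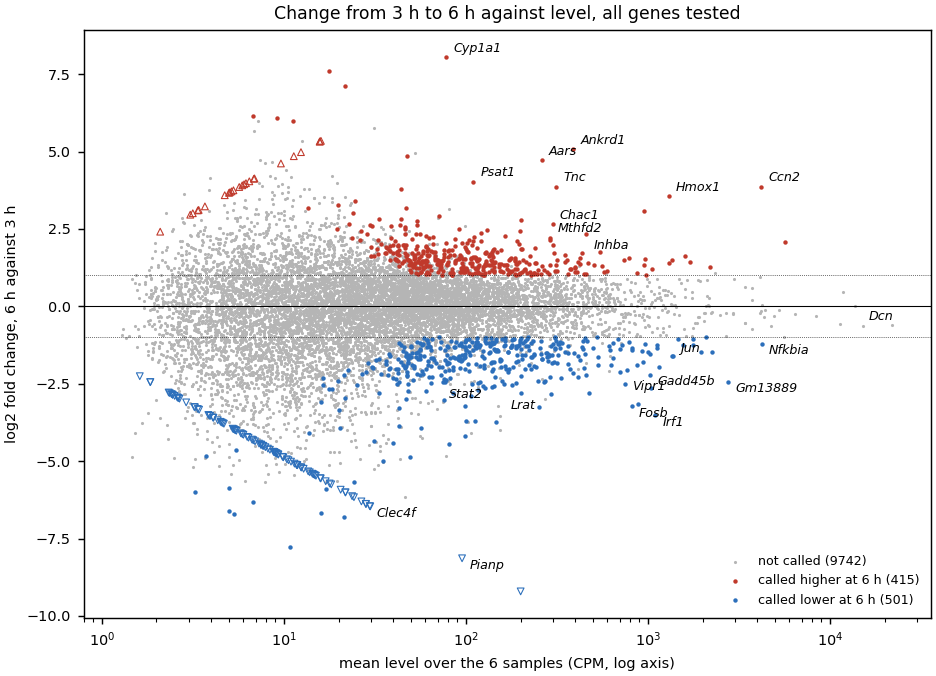
Log2 fold change from 3 h to 6 h against the mean level over the 6 samples (CPM, log axis) for the 10658 genes tested, with 415 genes called higher in red, 501 called lower in blue and the others in grey. Triangles mark genes at 0 counts in all samples of one timepoint, placed at the bound that 3 counts per library allow, and dotted lines mark a fold change of 2.

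Matricellular proteins and targets of YAP and TEAD were among the most abundant upregulated genes. Ccn2 (Ctgf, chr10:24595442-24598683, plus strand in GRCm38), a secreted matricellular protein that binds TGF-beta and integrins, was at 498, 425 and 723 CPM at 3 h and 8369.5, 6853 and 8241 CPM at 6 h (log2 fold change 3.87, SE 0.25, adjusted p = 0.00327). Ankrd1, a nuclear ankyrin repeat protein and a standard YAP target that the study used as a marker of initiation, was at 26.2, 23.9 and 18.5 CPM at 3 h and 442, 631 and 1189 CPM at 6 h (log2 fold change 5.08, SE 0.44, adjusted p = 0.00492). Tnc, which encodes the wound matrix glycoprotein tenascin C, was at 39.4, 40.2 and 44.2 CPM at 3 h and 395, 577 and 781 CPM at 6 h (log2 fold change 3.86, SE 0.29, adjusted p = 0.00327). Every 6 h sample of these 3 genes lay far above the 3 h samples. Ccn1 (Cyr61), the close relative of Ccn2, was at 746, 785 and 1273 CPM at 3 h and 2199, 2435 and 2757 CPM at 6 h (log2 fold change 1.44, SE 0.24, adjusted p = 0.024, up to 0.106 without 3 h replicate 2).

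Of the 28 tested YAP and TEAD targets, 7 rose (2 to 6 with 1 sample left out, fewest without 3 h replicate 1) and 3 fell, with a median log2 fold change of 0.30. F3, which encodes tissue factor, was at 10.6, 10.3 and 25.5 CPM at 3 h and 58.1, 86.8 and 133 CPM at 6 h (log2 fold change 2.62, SE 0.51, adjusted p = 0.0355, up to 0.132 without 3 h replicate 1). Among the members that fell was Gadd45b, which is counted again below with the immediate early genes, since lists can share members. Another was Rbms3, an RNA binding protein, which went from 623 to 242 CPM (log2 fold change -1.33, SE 0.19, adjusted p = 0.0162). Of 14 matricellular genes, with a median of 0.12 that was -0.41 without 6 h replicate 3, 4 rose (2 to 4 with 1 sample left out, fewest without 3 h replicate 1 or 2) and 2 fell. Tgfbi, an adhesion protein of the matrix, was one of the 2 and went from 2228 to 912 CPM (log2 fold change -1.25, SE 0.14, adjusted p = 0.00805).

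The upstream sequence of Ankrd1 is shown because Ankrd1 is the YAP target with the largest change. Promoter sequences, here and below, are those of RefSeq (GRCm38.p6), the 250 bases before the annotated start, written 5′ to 3′ in the direction of transcription. Each motif was searched on both strands, and 7515 of the 10658 genes tested had a promoter in the table. Ankrd1 (chr19:36119845-36120094, minus strand) held 2 matches to GGAATG, the core of the TEAD site, in capitals, which began 210 and 123 bases before the start.
Ankrd1: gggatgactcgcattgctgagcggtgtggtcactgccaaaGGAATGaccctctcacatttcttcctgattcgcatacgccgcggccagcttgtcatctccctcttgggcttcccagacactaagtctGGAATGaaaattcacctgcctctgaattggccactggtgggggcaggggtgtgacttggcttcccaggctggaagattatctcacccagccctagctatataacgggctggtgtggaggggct
GGAATG was found in 14.4% of all 27025 promoters and in 12.6% of those tested. It was in 11.3% of 326 upregulated and 15.8% of 360 downregulated genes with a promoter.

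Inhibitors of matrix breakdown moved in both directions. Timp3, a metalloproteinase inhibitor held in the matrix, was at 747, 650.3 and 815 CPM at 3 h and 1586, 2057 and 2022 CPM at 6 h (log2 fold change 1.39, SE 0.18, adjusted p = 0.012). Its relative Timp2 went the other way, at 1413, 1588 and 1616 CPM at 3 h and 458, 511 and 571 CPM at 6 h (log2 fold change -1.55, SE 0.16, adjusted p = 0.0077). Neither gene overlapped between the timepoints. Of the 19 tested proteases, inhibitors and genes of the plasminogen system, with a median of -0.33, 6 rose (3 to 5 with 1 sample left out, fewest without 3 h replicate 2) and 2 fell. Serpinb2, an inhibitor of plasminogen activators, was at 0 counts in every 3 h sample and at 29.04, 21.0 and 18.1 CPM at 6 h, at least 28.8-fold higher against a floor of 3 counts per library (adjusted p = 0.0272). It passed the filter on low counts only through the 6 h samples.

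**Figure D3:**
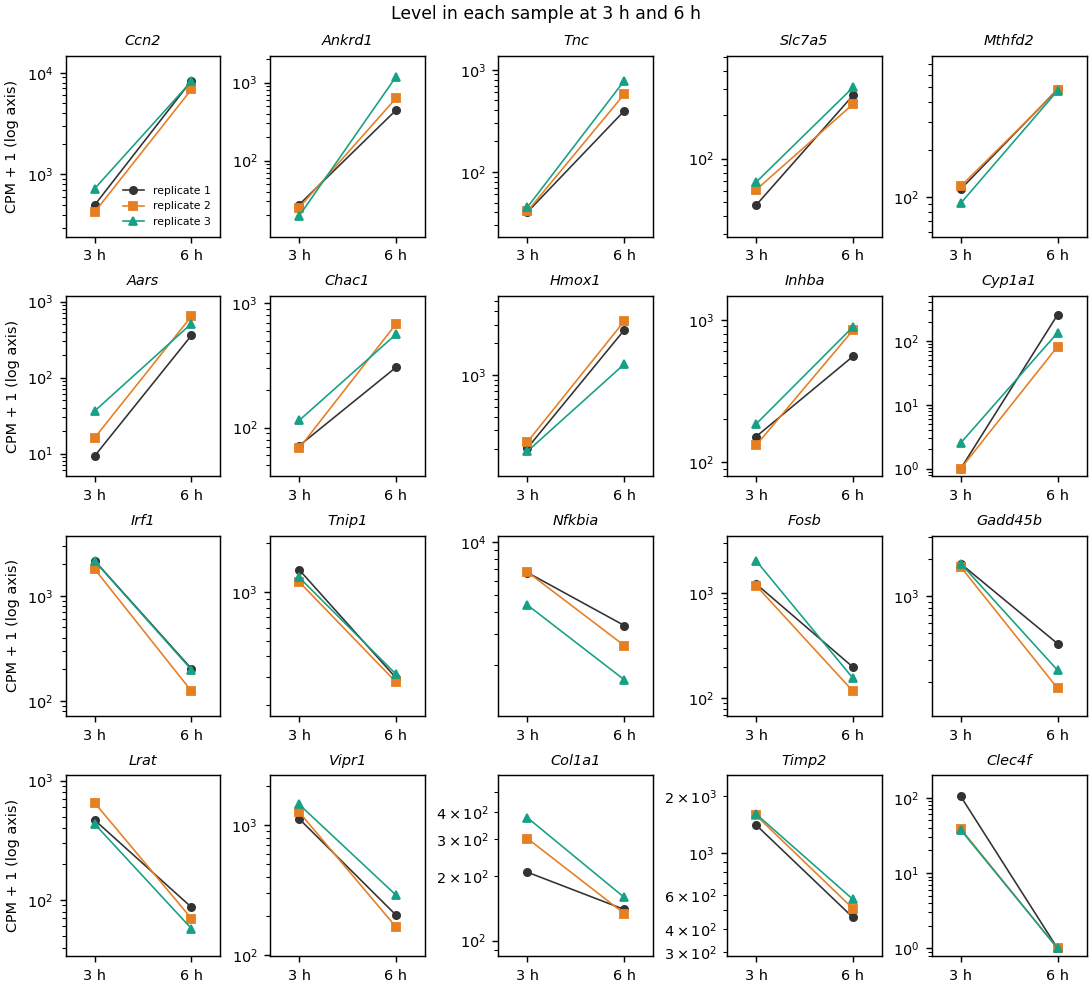
Level of 20 genes (CPM plus 1, log axis, each panel with its own range) in the 3 samples at 3 h and the 3 samples at 6 h, with lines that join the samples of one replicate number. The first 10 genes rise and the last 10 fall along all 3 lines, and Cyp1a1 at 3 h and Clec4f at 6 h lie at or near 0 CPM.

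Some abundant genes of the actin cytoskeleton and focal adhesions rose by moderate folds. Of 41 tested, 8 rose (5 to 7 with 1 sample left out) and 1 fell, with a median log2 fold change of 0.30. One of the 8, Myl12b, is uncertain, because the annotation holds 2 overlapping genes of that symbol whose counts moved in opposite directions. Actn1, an actin crosslinker of focal adhesions, was at 547, 735 and 680.2 CPM at 3 h and 1399, 1478 and 1513 CPM at 6 h (log2 fold change 1.20, SE 0.16, adjusted p = 0.0139). Tagln, the smooth muscle protein transgelin, was at 185, 179 and 254 CPM at 3 h and 512, 876 and 619 CPM at 6 h (log2 fold change 1.73, SE 0.25, adjusted p = 0.0164). Tpm4, a tropomyosin, went from 325 to 789.7 CPM (log2 fold change 1.32, SE 0.17, adjusted p = 0.012), and Cald1, which encodes the actin binding protein caldesmon, went from 1308 to 3077 CPM (log2 fold change 1.27, SE 0.20, adjusted p = 0.0186). No integrin subunit rose among 11 tested, with a median of -0.64, and 3 fell.

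Amino acid supply was the list with the highest median. Of 27 tested targets of the stress regulated transcription factor ATF4 and genes of amino acid metabolism, 15 rose (7 to 12 with 1 sample left out, fewest without 6 h replicate 1 or 2) and 2 fell, with a median log2 fold change of 1.54. Mthfd2, a mitochondrial enzyme of one-carbon metabolism, was at 111, 116 and 90.1 CPM at 3 h and 483, 476 and 474 CPM at 6 h (log2 fold change 2.21, SE 0.17, adjusted p = 0.00327). The 3 h and the 6 h samples were each close together. Slc7a5, the transporter of large neutral amino acids, was at 46.7, 59.8 and 67.7 CPM at 3 h and 271, 236 and 308 CPM at 6 h (log2 fold change 2.26, SE 0.22, adjusted p = 0.00727). Chac1, which degrades glutathione, was at 70.5, 67.3 and 113 CPM at 3 h and 305, 682 and 563 CPM at 6 h (log2 fold change 2.66, SE 0.36, adjusted p = 0.014). Psat1, an enzyme of serine synthesis, went from 13.2 to 206 CPM (log2 fold change 4.02, SE 0.75, adjusted p = 0.0302, up to 0.127 without 3 h replicate 2), and Asns, asparagine synthetase, went from 5.92 to 81.8 CPM (log2 fold change 3.80, SE 1.07, adjusted p = 0.0899, 0.144 with the isolation date as a factor and up to 0.205 without 3 h replicate 2). The 2 that fell were Ppp1r15a (Gadd34), which resets the phosphorylation of the initiation factor eIF2, and Ddit3 (Chop), a stress transcription factor. Ppp1r15a was at 1895, 2031 and 2076 CPM at 3 h and 1005, 1142 and 694 CPM at 6 h (log2 fold change -1.05, SE 0.21, adjusted p = 0.0355, up to 0.128 without 3 h replicate 2), and Ddit3 went from 340.4 to 167 CPM (log2 fold change -0.99, SE 0.24, adjusted p = 0.0612, up to 0.192 without 3 h replicate 1).

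Cytosolic tRNA synthetases, which charge tRNAs with amino acids, rose in 13 of 22 cases (7 to 10 with 1 sample left out, fewest without 3 h replicate 1, 2 or 3) and fell in none. Their median log2 fold change was 1.35. Aars, for alanine, was at 8.28, 15.1 and 35.2 CPM at 3 h and 358, 641 and 514 CPM at 6 h (log2 fold change 4.71, SE 0.56, adjusted p = 0.0104). It had the largest change of the list, with no overlap between the timepoints. Gars, for glycine, was at 62.9, 109 and 97.7 CPM at 3 h and 266, 373 and 308 CPM at 6 h (log2 fold change 1.85, SE 0.26, adjusted p = 0.0142). Eprs, for glutamate and proline, was at 223, 244 and 247 CPM at 3 h and 498, 579 and 738 CPM at 6 h (log2 fold change 1.38, SE 0.19, adjusted p = 0.0144).

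Both Chac1 and Aars carried a match to TGATGCAA, the composite site of C/EBP and ATF factors, and their promoters are shown with it in capitals, here in its reverse complement. It began 193 bases before the start of Chac1 (chr2:119350992-119351241, plus strand) and 112 bases before that of Aars (chr8:111033592-111033841, plus strand).
Chac1: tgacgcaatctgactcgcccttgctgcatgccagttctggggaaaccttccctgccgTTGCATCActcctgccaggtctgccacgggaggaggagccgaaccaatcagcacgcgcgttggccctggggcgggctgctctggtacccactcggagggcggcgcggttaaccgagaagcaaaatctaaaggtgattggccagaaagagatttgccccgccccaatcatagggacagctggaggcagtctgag
Aars: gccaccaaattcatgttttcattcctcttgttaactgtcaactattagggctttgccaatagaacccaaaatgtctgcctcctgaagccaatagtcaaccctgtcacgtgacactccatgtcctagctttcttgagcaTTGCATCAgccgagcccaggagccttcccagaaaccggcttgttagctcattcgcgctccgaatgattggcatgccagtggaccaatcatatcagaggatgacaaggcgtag
TGATGCAA was found in 0.918% of all promoters, in 0.559% of those tested, in 1.23% of upregulated and in 0.833% of downregulated genes. It was in 1 of the 13 risen amino acid genes with a promoter and in 2 of the 8 such tRNA synthetases. Among all tested members with a promoter, it was in 2 of 23 amino acid genes and in 2 of 15 tRNA synthetases.

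Many genes of ribosome assembly rose. Of 64 tested genes of Myc and ribosome biogenesis, 27 rose (10 to 24 with 1 sample left out, fewest without 3 h replicate 1) and none fell, with a median log2 fold change of 1.20. Rrs1, an assembly factor of the large subunit, was at 65.6, 53.6 and 70.5 CPM at 3 h and 213, 231 and 213 CPM at 6 h (log2 fold change 1.83, SE 0.19, adjusted p = 0.0077). Wdr75, a factor of early ribosomal RNA processing, was at 44.0, 51.2 and 45.7 CPM at 3 h and 171, 138 and 162 CPM at 6 h (log2 fold change 1.78, SE 0.21, adjusted p = 0.00925). Ddx18, a nucleolar helicase, went from 79.6 to 313 CPM (log2 fold change 2.01, SE 0.27, adjusted p = 0.0131). Ribosomal proteins themselves moved less. Of 75 tested, 15 rose (8 with the isolation date as a factor, and 0 to 12 with 1 sample left out, fewest without 3 h replicate 1) and none fell (median log2 fold change 0.36), and their share of all counts was 3.03 to 3.31% at 3 h and 3.74 to 4.48% at 6 h. Of 35 proteasome subunits, 3 rose and none fell, at a median of 0.51. Ran, the GTPase of nuclear transport, went from 292 to 718 CPM (log2 fold change 1.33, SE 0.21, adjusted p = 0.0205) and was one of 5 risen genes (3 with the isolation date as a factor, and 1 to 4 with 1 sample left out, fewest without 3 h replicate 1 or 3), against 2 that fell, among 40 of RNA processing and export (median 0.19).

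Genes of the oxidative stress response driven by NRF2 rose more often than they fell. Of 28 tested, 11 rose (4 to 8 with 1 sample left out, fewest without 3 h replicate 1 or 6 h replicate 1) and 2 fell, with a median log2 fold change of 0.77. Hmox1 (chr8:75093621-75100589, plus strand), the heme oxygenase that splits heme, was at 204, 233 and 189.7 CPM at 3 h and 2673, 3246 and 1270.0 CPM at 6 h (log2 fold change 3.55, SE 0.36, adjusted p = 0.0077). Txnrd1, a thioredoxin reductase, was at 382, 426 and 396 CPM at 3 h and 1119, 1375 and 1005 CPM at 6 h (log2 fold change 1.57, SE 0.17, adjusted p = 0.00805). Pgd, an NADPH producing enzyme of the pentose phosphate pathway, was at 49.3, 41.9 and 43.9 CPM at 3 h and 168, 172 and 177 CPM at 6 h (log2 fold change 1.97, SE 0.19, adjusted p = 0.00727). Gstm1, a glutathione transferase, went the other way, from 823 to 500.3 CPM (log2 fold change -0.69, SE 0.15, adjusted p = 0.0504, up to 0.18 without 3 h replicate 1). Cyp1a1, the cytochrome P450 that is the standard target of the aryl hydrocarbon receptor, came up from near 0, with 0, 0 and 1.52 CPM at 3 h and 253, 80.2 and 132 CPM at 6 h (adjusted p = 0.0122).

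Chaperones moved in both directions. Of 35 heat shock chaperones, 8 rose (4 to 8 with 1 sample left out, fewest without 3 h replicate 1) and 6 fell (1 to 4 with 1 sample left out, fewest without 3 h replicate 2), which left a median of 0.01 that turned negative under other scaling (-0.07 with the RLE factors). Among those that rose, Hspa9 and Hspd1 are mitochondrial, and they went from 254 to 841 CPM (log2 fold change 1.76, SE 0.22, adjusted p = 0.012) and from 113 to 339 CPM (log2 fold change 1.62, SE 0.25, adjusted p = 0.0196). Hspe1, the cochaperonin of Hspd1, went from 72.8 to 186 CPM (log2 fold change 1.39, SE 0.22, adjusted p = 0.0202). Among those that fell, Dnaja1, a cytosolic partner of Hsp70, went from 422 to 177 CPM (log2 fold change -1.22, SE 0.20, adjusted p = 0.0235). Of 29 genes of the endoplasmic reticulum and its unfolded protein response, 4 rose (0 to 3 with 1 sample left out, fewest without 3 h replicate 1 or 2) and 1 fell, at a median of 0.34.

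Several secreted signals changed. Inhba, which encodes the subunit of activin A, was at 150.3, 130.4 and 184 CPM at 3 h and 552, 843 and 890.4 CPM at 6 h (log2 fold change 2.33, SE 0.25, adjusted p = 0.0077). Ereg, an EGF receptor ligand, was at 184, 170.2 and 218 CPM at 3 h and 493, 531 and 552 CPM at 6 h (log2 fold change 1.50, SE 0.17, adjusted p = 0.00857), and it was 1 of 3 genes that rose, against 1 that fell, among 19 of ERK feedback and EGF ligands (median 0.36). Dusp6, the phosphatase that limits ERK, went from 105 to 376 CPM (log2 fold change 1.87, SE 0.20, adjusted p = 0.00805). Gdf15, a stress cytokine, went from 37.9 to 152 CPM (log2 fold change 2.04, SE 0.26, adjusted p = 0.012), and Pdgfa, a ligand of the PDGF receptors, went from 77.4 to 193 CPM (log2 fold change 1.35, SE 0.19, adjusted p = 0.0153). Bmp10, a ligand made by HSCs for the receptor ALK1 of endothelial cells, was at 734, 971 and 677 CPM at 3 h and 1778, 3455 and 1958 CPM at 6 h (log2 fold change 1.63, SE 0.29, adjusted p = 0.0285, up to 0.126 without 3 h replicate 1). Gdf2 (Bmp9), the other ligand of that receptor, was at 211, 152 and 233 CPM at 3 h and 23.1, 27.8 and 52.4 CPM at 6 h (log2 fold change -2.49, SE 0.37, adjusted p = 0.0174), so that the 2 moved in opposite directions.

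Receptors and regulators of these pathways did not move as a body. Of 26 genes of TGF-beta signalling, 2 rose and 3 fell, and of 24 growth factors, receptors and vasoactive genes, 4 rose (2 with the isolation date as a factor, and 1 to 3 with 1 sample left out, fewest without 3 h replicate 1, 2 or 3) and 3 fell. Their medians were -0.18 and -0.02, and the sign of each changed under at least 1 setting. Among regulators, Smurf2, a ubiquitin ligase that acts on Smads and TGF-beta receptors, went from 92.7 to 254 CPM (log2 fold change 1.49, SE 0.19, adjusted p = 0.0114), and Ski, a corepressor of Smads, went from 405 to 121 CPM (log2 fold change -1.71, SE 0.20, adjusted p = 0.0101). Of 19 genes of BMP signalling, with a median of -0.38, 2 rose and 3 fell. Of 24 chemokines and inflammatory cytokines, 1 rose and 2 fell, and of 13 TNF receptors only Tnfrsf11b, the decoy receptor osteoprotegerin, rose, from 193 to 509 CPM (log2 fold change 1.44, SE 0.26, adjusted p = 0.0298, up to 0.117 without 3 h replicate 1).

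**Figure D4:**
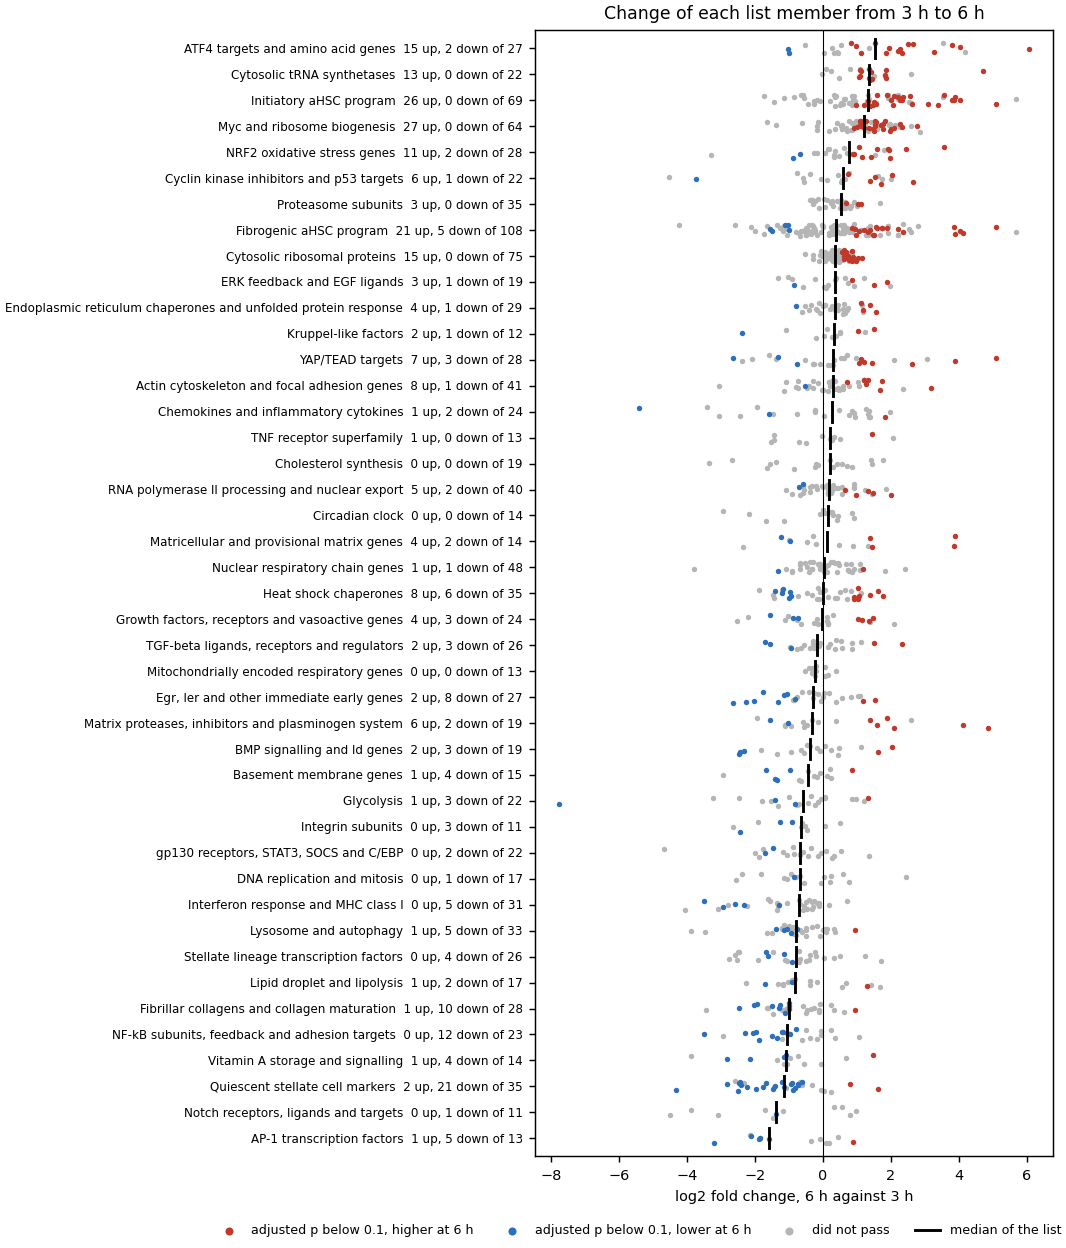
Log2 fold change from 3 h to 6 h of each tested member of 43 gene lists, ordered by the list median (black bar), with members at an adjusted p below 0.1 in red (higher at 6 h) or blue (lower at 6 h) and the others in grey, and genes at 0 in one group placed at their bound. ATF4 targets, tRNA synthetases, the initiatory program and ribosome biogenesis have the highest medians, and AP-1 factors, Notch genes and quiescence markers the lowest.

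Genes of NF-kB signalling fell or did not pass. Of 23 tested subunits, feedback inhibitors and adhesion targets, 12 fell (7 to 10 with 1 sample left out, fewest without 3 h replicate 2 or 3) and none rose, with a median log2 fold change of -1.06. Irf1 (chr11:53770014-53778374, plus strand), a transcription factor induced by NF-kB and interferons, was at 2155, 1797 and 2139.9 CPM at 3 h and 202, 123 and 197 CPM at 6 h (log2 fold change -3.51, SE 0.25, adjusted p = 0.00327). Tnip1, an inhibitor of NF-kB signalling, was at 1371, 1154 and 1229 CPM at 3 h and 293, 276 and 309 CPM at 6 h (log2 fold change -2.06, SE 0.16, adjusted p = 0.00327). Nfkbiz, a nuclear inhibitor protein of the same family as IkB, was at 1066, 882 and 1052 CPM at 3 h and 316, 249.8 and 221 CPM at 6 h (log2 fold change -1.90, SE 0.19, adjusted p = 0.0077). Every 6 h sample of these 3 genes lay far below the 3 h samples. Nfkbia, which encodes IkB alpha and was the most abundant downregulated gene, was at 6688, 6736 and 4368 CPM at 3 h and 3341, 2569.6 and 1641 CPM at 6 h (log2 fold change -1.20, SE 0.30, adjusted p = 0.0675, 0.109 with the isolation date as a factor and up to 0.215 without 3 h replicate 1). Ripk2, a kinase that signals to NF-kB, went from 243 to 48.1 CPM (log2 fold change -2.30, SE 0.28, adjusted p = 0.0104).

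The promoter of Nfkbia (chr12:55492648-55492897, minus strand) is shown as that of the most abundant downregulated gene. It held 2 matches to GGGANTTTC, a form of the NF-kB site that was added to the search after the data had been seen. The matches, in capitals, began 113 and 28 bases before the start.
Nfkbia: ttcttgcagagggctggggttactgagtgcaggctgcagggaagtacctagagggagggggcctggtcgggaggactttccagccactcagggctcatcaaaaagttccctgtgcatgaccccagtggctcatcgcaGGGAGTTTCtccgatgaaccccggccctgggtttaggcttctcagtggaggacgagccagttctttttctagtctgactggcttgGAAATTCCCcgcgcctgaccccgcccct
GGGANTTTC was found in 1.11% of all promoters, in 0.878% of those tested, in 0.613% of upregulated and in 0.556% of downregulated genes. Of the other motifs searched, the E-box CACGTG was in 10.3% of those tested, 14.4% of upregulated and 8.61% of downregulated genes. The AP-1 site TGACTCA was in 3.99%, 7.36% and 4.17%, and the NRF2 element TGACNNNGC, which can overlap the AP-1 site, in 14.2%, 12.9% and 18.1%. The CRE TGACGTCA was in 3.29%, 1.53% and 2.5%, and the heat shock element GAANNTTC in 5.79%, 5.83% and 5.83%. All these shares are descriptions and were not tested.

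Genes of the interferon response were lower in part. Of 31 genes of the interferon response and MHC class I, with a median of -0.72, 5 fell (2 with the isolation date as a factor, and 2 to 5 with 1 sample left out, fewest without 3 h replicate 1, 2 or 3 or 6 h replicate 1) and none rose. Stat2, a subunit of the interferon activated complex ISGF3, was at 254, 213 and 256 CPM at 3 h and 38.5, 42.3 and 35.8 CPM at 6 h (log2 fold change -2.60, SE 0.20, adjusted p = 0.00327). Of 22 genes of the gp130 receptors, STAT3 and SOCS, with a median of -0.69, 2 fell and none rose. Stat3 went from 1489 to 524 CPM (log2 fold change -1.47, SE 0.22, adjusted p = 0.0168), and its feedback inhibitor Socs3 went from 402 to 121 CPM (log2 fold change -1.70, SE 0.30, adjusted p = 0.0276, up to 0.108 without 3 h replicate 1). The summed markers of Kupffer cells, which express many of the same inflammatory genes, summed to 299 to 566 CPM at 3 h and to 37.6 to 58.8 CPM at 6 h, and their part in this result was not tested.

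Immediate early genes respond to stimuli within minutes. Of the 13 tested AP-1 factors, 5 fell, with a median of -1.61, and 1 rose. Fosb was at 1224, 1180.4 and 2035 CPM at 3 h and 197, 116 and 155 CPM at 6 h (log2 fold change -3.21, SE 0.31, adjusted p = 0.00727). Jun was at 1923, 2098 and 2216 CPM at 3 h and 594, 638 and 767 CPM at 6 h (log2 fold change -1.61, SE 0.16, adjusted p = 0.0077), and Fos went from 278 to 62.5 CPM (log2 fold change -2.11, SE 0.29, adjusted p = 0.0142). The gene that rose was Mafg, a small Maf protein, from 179 to 322 CPM (log2 fold change 0.88, SE 0.21, adjusted p = 0.0594, up to 0.2 without 3 h replicate 1).

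Of 27 other immediate early genes, with a median of -0.28, 8 fell (4 to 6 with 1 sample left out, fewest without 3 h replicate 1 or 2 or 6 h replicate 1) and 2 rose. Gadd45b, a stress protein, was at 1825, 1723 and 1830.3 CPM at 3 h and 409, 177 and 249 CPM at 6 h (log2 fold change -2.65, SE 0.32, adjusted p = 0.0104). Csrnp1, an AP-1 regulated nuclear protein, went from 442 to 127 CPM (log2 fold change -1.76, SE 0.21, adjusted p = 0.0104), and Nr4a3, an orphan nuclear receptor, went from 160.0 to 38.1 CPM (log2 fold change -2.04, SE 0.32, adjusted p = 0.0204). Plk2, a polo-like kinase, rose, at 400.4, 586 and 521 CPM at 3 h and 1284, 1140.3 and 1836 CPM at 6 h (log2 fold change 1.54, SE 0.24, adjusted p = 0.0203). The Krüppel-like factors gave 2 risen genes and 1 that fell among 12, with a median of 0.32. Klf6, the zinc finger factor known as an early gene of HSC activation, was at 585, 807 and 779 CPM at 3 h and 1953, 1540.0 and 2450.3 CPM at 6 h (log2 fold change 1.49, SE 0.23, adjusted p = 0.0181). Klf5 went from 86.5 to 16.1 CPM (log2 fold change -2.38, SE 0.45, adjusted p = 0.0318, up to 0.124 without 3 h replicate 3).

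Several of these genes had lower means in the cells collected without culture. Gadd45b had a mean of 72.5 CPM at 0 h (2 samples), against 1793 at 3 h, 278 at 6 h and 242 at 12 h. Tnip1 was at 33.7, 1251, 293 and 375 CPM at these times, and Irf1 at 791, 2031, 174 and 49.8. Their 3 h means were thus the highest of the 4. Fos and Jun had their highest means at 0 h, at 2732 and 3181 CPM.

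Many markers of the quiescent state fell. Of 35 tested, 21 fell (11 to 19 with 1 sample left out, fewest without 3 h replicate 1, 2 or 3) and 2 rose, with a median log2 fold change of -1.16. Lrat (chr3:82892579-82903973, minus strand), the enzyme that esterifies retinol for storage, was at 466, 651 and 432 CPM at 3 h and 85.9, 68.9 and 56.6 CPM at 6 h (log2 fold change -2.84, SE 0.25, adjusted p = 0.00576). Vipr1, the receptor for vasoactive intestinal peptide, was at 1121, 1263 and 1448 CPM at 3 h and 202, 164 and 289 CPM at 6 h (log2 fold change -2.51, SE 0.25, adjusted p = 0.0077). Tmem56, a transmembrane protein, was at 721, 719 and 834 CPM at 3 h and 165, 168 and 139 CPM at 6 h (log2 fold change -2.23, SE 0.17, adjusted p = 0.00327). Colec10, a secreted collectin, was at 1026, 986 and 945 CPM at 3 h and 305, 309 and 292 CPM at 6 h (log2 fold change -1.67, SE 0.14, adjusted p = 0.00443). The 6 h samples of each of these lay below every 3 h sample. Prelp, a leucine rich matrix protein, went from 1842 to 459 CPM (log2 fold change -1.97, SE 0.21, adjusted p = 0.0077), and Sod3, the extracellular superoxide dismutase, went from 2903 to 1015 CPM (log2 fold change -1.48, SE 0.17, adjusted p = 0.0088). The 2 that rose were Bmp10 and Rspo3, a Wnt agonist, which went from 751 to 1273 CPM (log2 fold change 0.80, SE 0.16, adjusted p = 0.0348, up to 0.139 without 3 h replicate 1).

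Mapt, a member of the quiescence list that encodes the microtubule protein tau, was at 381, 416 and 469.6 CPM at 3 h and 69.6, 106 and 57.7 CPM at 6 h (log2 fold change -2.41, SE 0.26, adjusted p = 0.00805). Ntm, the cell adhesion protein neurotrimin, which the study names with Gfap and Ngfr as a marker of quiescence, was at 724, 1284 and 742 CPM at 3 h and 467, 457 and 513 CPM at 6 h (log2 fold change -0.90, SE 0.25, adjusted p = 0.0867, 0.111 with the isolation date as a factor and up to 0.191 without 6 h replicate 1). Ngfr, the low affinity neurotrophin receptor, was at 373, 592 and 379 CPM at 3 h and 131, 267 and 82.5 CPM at 6 h and missed the threshold (log2 fold change -1.45, SE 0.43, adjusted p = 0.108, 0.0422 with the isolation date as a factor and up to 0.303 without 3 h replicate 2), although the samples did not overlap. Gfap did not pass the filter on low counts.

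Genes of vitamin A handling fell in 4 of 14 cases (2 with the isolation date as a factor, and 2 to 4 with 1 sample left out, fewest without 3 h replicate 1, 2 or 3) and rose in 1, with a median of -1.08. Bco1, which cleaves beta-carotene, was the one that rose, from 40.1 to 108 CPM (log2 fold change 1.46, SE 0.31, adjusted p = 0.0433, up to 0.143 without 3 h replicate 2). Of 17 genes of lipid droplets, with a median of -0.83, 2 fell and 1 rose. The one that rose was Acsl4, which activates long polyunsaturated fatty acids, from 236 to 559 CPM (log2 fold change 1.28, SE 0.15, adjusted p = 0.0104). Of 26 transcription factors of the stellate lineage, with a median of -0.81, 4 fell (2 with the isolation date as a factor, and 2 to 5 with 1 sample left out, fewest without 3 h replicate 2 or 3 or 6 h replicate 1) and none rose. Nfia was at 393, 437 and 449 CPM at 3 h and 125, 143 and 134 CPM at 6 h (log2 fold change -1.63, SE 0.16, adjusted p = 0.00727), and Foxf1, a factor of mesenchymal development, went from 150.3 to 46.2 CPM (log2 fold change -1.67, SE 0.23, adjusted p = 0.0144).

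Collagen genes fell more often than they rose. Of 28 fibrillar collagens and enzymes of collagen maturation, 10 fell (0 to 9 with 1 sample left out, fewest without 3 h replicate 2 or 3) and 1 rose, with a median log2 fold change of -1.01. Col14a1, a fibril associated collagen, was at 2329.7, 3004 and 3047 CPM at 3 h and 1116, 1523 and 1436 CPM at 6 h (log2 fold change -1.01, SE 0.19, adjusted p = 0.0302, up to 0.124 without 3 h replicate 2). Col1a1, the main chain of collagen I, was at 208, 300.1 and 376 CPM at 3 h and 139, 133 and 158 CPM at 6 h (log2 fold change -1.002, SE 0.24, adjusted p = 0.0603, 0.101 with the isolation date as a factor and up to 0.177 without 3 h replicate 2). Col5a2 was the one that rose, from 128 to 241 CPM (log2 fold change 0.95, SE 0.20, adjusted p = 0.0414, up to 0.14 without 3 h replicate 2). Of 15 basement membrane genes, with a median of -0.45, 4 fell (0 to 4 with 1 sample left out, fewest without 3 h replicate 2) and 1 rose. The member that rose was Col4a1, at 1327, 1684 and 1599 CPM at 3 h and 2445, 2990.2 and 2698 CPM at 6 h (log2 fold change 0.85, SE 0.16, adjusted p = 0.031, up to 0.127 without 3 h replicate 1), and Sparc, a collagen binding glycoprotein, was at 3073, 3498 and 4158 CPM at 3 h and 1533, 2018 and 1791 CPM at 6 h (log2 fold change -0.97, SE 0.18, adjusted p = 0.0301, up to 0.114 without 3 h replicate 2). Of 33 lysosomal and autophagy genes, with a median of -0.78, 5 fell (1 to 7 with 1 sample left out, fewest without 3 h replicate 1, 2 or 3) and 1 rose, and Tpp1, a lysosomal protease, went from 217 to 80.5 CPM (log2 fold change -1.40, SE 0.19, adjusted p = 0.0141).

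Of 22 cyclin kinase inhibitors and p53 targets, with a median of 0.60, 6 rose (2 to 4 with 1 sample left out, fewest without 3 h replicate 2) and 1 fell. Cdkn1a, the p21 inhibitor that the study followed in these cultures, was at 813, 645 and 534 CPM at 3 h and 463, 541 and 311 CPM at 6 h and did not pass (log2 fold change -0.57, SE 0.26, adjusted p = 0.274). Of 17 genes of DNA replication and mitosis, 1 fell and none rose. None of 19 genes of cholesterol synthesis, 14 of the circadian clock or 13 mitochondrially encoded respiratory genes passed in edgeR, and 1 rose and 1 fell among 48 nuclear respiratory genes. At an unadjusted p below 0.05 there were 2, 0 and 1 of these 19, 14 and 13, and DESeq2 called 3, 1 and 2 at an adjusted p below 0.1. Of 22 glycolytic genes, with a median of -0.58, 1 rose and 3 fell. Of 11 Notch genes, 1 fell, namely Notch1, from 211 to 78.1 CPM (log2 fold change -1.40, SE 0.28, adjusted p = 0.0363, up to 0.126 without 3 h replicate 3). Lox, which encodes a collagen crosslinking enzyme, was at 12.9, 15.1 and 4.79 CPM at 3 h and 5.93, 16.1 and 2.92 CPM at 6 h (adjusted p = 0.891). Vcan, which encodes the proteoglycan versican, was at 6.95, 2.87 and 7.61 CPM at 3 h and 0, 7.35 and 34.9 CPM at 6 h (adjusted p = 0.743). The timepoints overlapped for both. The study compared its cultures with freshly isolated cells, which is another contrast. At 12 h against 0 h, Vcan (log2 fold change 9.44, SE 1.75, adjusted p = 0.0366) and Cdkn1a (3.07, SE 0.39, adjusted p = 0.00993) were higher. Lox did not pass there (1.01, SE 1.07, adjusted p = 0.599).

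The programs that the study defined were followed over the same interval. Of the 69 tested genes of its initiatory program, 26 rose (13 to 24 with 1 sample left out, fewest without 3 h replicate 2) and none fell, with a median log2 fold change of 1.32. That program was selected in part for being upregulated at 6 h and 12 h in these same cultures, so its count is not independent evidence of a direction. Of the 108 tested genes of the fibrogenic program, which came from HSCs of mice with carbon tetrachloride injury, 21 rose (8 to 18 with 1 sample left out, fewest without 3 h replicate 1) and 5 fell (3 with the isolation date as a factor, and 1 to 5 with 1 sample left out, fewest without 3 h replicate 2 or 3), with a median of 0.38. Those that fell included Col1a1 (above), Col1a2, which encodes the second chain of collagen I (log2 fold change -1.11, SE 0.31, adjusted p = 0.0867, 0.118 with the isolation date as a factor and up to 0.223 without 3 h replicate 3), and Adamts4, a protease of matrix proteoglycans (log2 fold change -1.03, SE 0.21, adjusted p = 0.0362, up to 0.136 without 3 h replicate 2). Ccn2, Tnc, Ankrd1, Mthfd2, Ereg, Actn1 and Psat1 were members that rose, and these 7 genes belong to the initiatory program as well. The study reports more genes shared by both programs, and the shared genes were selected in part in these same cultures. The fibrogenic count is thus not fully independent evidence of a direction either. Of the 172 members of the fibrogenic program matched to the counts, 64 were not tested.

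Some called genes were at 0 counts in all 6 h samples. They passed the filter on low counts only through the 3 h samples, where they were high. Their bounds and adjusted p are thus descriptions and not independent evidence that a gene was switched off. Whether counts were lost in the 6 h libraries was not tested. Pianp, which encodes a ligand of the receptor PILR alpha, was at 167, 226 and 179.9 CPM at 3 h and at 0 counts in every 6 h sample, at least 282-fold lower against the floor of 3 counts per library (adjusted p = 0.00327). It was again at 98.6 CPM at 96 h. Clec4f was at 104, 37.8 and 36.5 CPM at 3 h, at least 87.6-fold lower at 6 h (adjusted p = 0.016), and Cd5l, a protein secreted by macrophages, was at 71.9, 52.2 and 45.2 CPM, at least 83.3-fold lower (adjusted p = 0.0105). Both remained under 2 CPM on average at 12 to 96 h. Ssbp4, Gorasp1, Rnaseh2c, Ripor3, Gstt1 and C1qtnf2 also went from 43.6 to 59.7 CPM on average to 0 counts. Of these, Gorasp1, a Golgi stacking protein, and Rnaseh2c, a subunit of ribonuclease H2, are used by most cells, and they were at 19.2 and 15.2 CPM at 18 h.

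The genes called between 3 h and 6 h were then followed in samples that had not chosen them. At 12 h against the cells without culture (3 against 2 samples), 10.7% of 11520 tested genes were called higher and 12.5% lower. Of the 410 tested genes that had risen from 3 h to 6 h, 259 were higher at 12 h than at 0 h and 1 was lower. Of the 501 genes that had fallen, 457 were tested, of which 266 were lower and 13 were higher. A fallen gene at or near 0 at 12 h passed the filter only through its level at 0 h and could be called only lower. Without 0 h replicate 2 or 3, all genes called lower at 12 h numbered 590 or 566 in place of 1435, and the counts of the followed genes were not computed without them. The 12 h and 0 h samples carry the same isolation dates as the 3 h and 6 h samples. Ccn2 was one of the genes higher at 12 h (log2 fold change 6.04, SE 0.72, adjusted p = 0.00834), and Lrat one of those lower (log2 fold change -6.30, SE 1.47, adjusted p = 0.0459). Tnip1 was among the 13 that were higher at 12 h than at 0 h (log2 fold change 3.50, SE 0.48, adjusted p = 0.0117).

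At 96 h against 12 h, 11.9% of 10934 tested genes were called higher and 9.76% lower. Of the 408 tested genes that had risen from 3 h to 6 h, 219 were lower at 96 h than at 12 h and 6 were higher. Of the 412 that had fallen, 153 were higher at 96 h and 29 were lower. These 2 comparisons share the 12 h samples. Mthfd2 had means of 106, 478, 786 and 75.1 CPM at 3, 6, 12 and 96 h, and Hmox1 209, 2396, 1824 and 249 CPM. Col1a1 had 295, 143, 75.0 and 1409 CPM, and Timp2 1539, 514, 153 and 1359 CPM. Lrat stayed low, with 11.1 CPM at 12 h and 31.9 at 96 h.

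**Figure D5:**
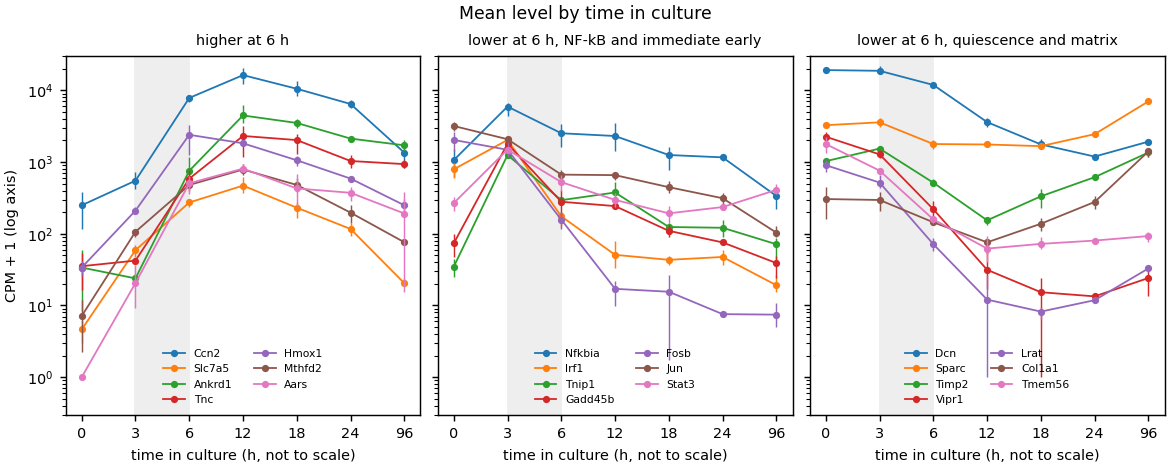
Mean CPM plus 1 (log axis) of 7 genes per panel at 0, 3, 6, 12, 18, 24 and 96 h in culture (axis not to scale), with vertical lines from the lowest to the highest sample and the step from 3 h to 6 h shaded. Of the genes that rise in the shaded interval, all but Hmox1 have their highest mean at 12 h, and Timp2, Sparc and Col1a1 turn up again by 96 h.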

How the data were processed

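HSCs of 2 isolation dates were collected at 7 timepoints from 0 h to 96 h, with 2 or 3 samples at each, and the 3 h and 6 h samples were compared. The authors trimmed and aligned single end 3' reads with STAR to GRCm38.p6 (mm10) and used StringTie to assemble transcripts. The deposited values are raw counts per gene for 55487 genes. The strand setting of counting is not given in the sources used here, so overlapping genes may share counts.

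From these counts, edgeR 4.0.16 (R 4.3.3) was run with default filtering by expression, TMM scaling and the quasi-likelihood test, without covariates, and genes were called above a 2 fold change with an adjusted p under 0.1. DESeq2 1.42.0, other scaling, no filter, equal depth, the isolation date, all 19 samples in one fit, the replicate number as a block and the removal of each sample were alternatives. Tables and figures were made with pandas 2.3.3 and matplotlib 3.10.9. The tests were also run on counts simulated from the fitted means and spreads. These held no added losses to 0, so that they cannot show how the calls fare with such losses. The study describes its repeats at each timepoint as independent.

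Totals of 3353915 to 5609553 counts put 3 counts at 0.535 to 0.894 CPM, and such floors cover counting error only. Named genes were the 12 largest rises and falls of protein coding genes at 20 CPM or more, the 5 most abundant called genes each way, up to 5 members of each list each way, and the genes the study names. Members and lists were chosen with earlier results of these data known. Some genes are not reported here.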

Additional observations from a re-analysis of the deposited data

How the results depend on the processing

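Of the 96 named genes that passed, 75 passed in every alternative that kept all samples. Those missing the threshold numbered 17 with all 19 samples in one fit, 5 with the replicate block, 5 with the isolation date, 2 with library size only, and 6 to 20 with 1 sample left out. The direction held for 98 of 100 named genes in every alternative. The exceptions, without 6 h replicate 3, were Lox and Vcan, whose log2 fold changes without 1 sample ranged from -1.33 to 0.049 and from -0.61 to 1.85 and passed in none. Genes called higher and lower numbered 674 and 1111 with DESeq2, 246 and 310 at an adjusted p below 0.05, and 244 and 297 with the replicate block. In one fit of all 19 samples, 379 were higher and 301 lower. With 1 sample left out, 144 to 301 were higher and 180 to 695 lower. The share called higher was 45.3% in the reported fit and 27.6% without 6 h replicate 2. It was 50.4% without 3 h replicate 2, 51.3% with library size only and 55.7% with all 19 samples in one fit. At 12 h against 0 h, the block gave 398 higher and 366 lower (160 of the genes that rose and 140 of those that fell from 3 h to 6 h were called in the same direction), and leaving out 1 sample gave 936 to 1142 higher and 566 to 1674 lower, where a lone 0 h sample was assumed to vary like the 12 h samples. At 96 h against 12 h, the block gave 797 higher, and leaving out 1 sample gave 939 to 1536 higher and 818 to 1018 lower. The labels do not say what the replicate number marks, but same-numbered samples at 3 h and 6 h share an isolation date. Their residuals correlated at 0.04, -0.01 and 0.05 over 10658 genes. Over the 5485 genes above 20 CPM they correlated at 0.04, 0.02 and 0.11, and differently numbered samples at -0.12 to 0.11. With 3 samples a group, such values cannot decide whether same-numbered samples are paired, and the reported fit did not pair them.

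With 3 samples a group and up to 145 abundant genes listed at 0 in one library, calls were fewer among low genes (0.624% higher and 2.76% lower under 5 CPM, 8.81% and 10.8% over 100 CPM). The causes of these shifts were not tested.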
